A study of Homo sapiens with 24 samples.

Results

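Open chromatin around 8 keratin genes was measured in T47D cells: KRT7, KRT8, KRT18 and KRT19, which mark luminal breast epithelium, and KRT5, KRT6A, KRT14 and KRT17, which mark basal epithelium. The peaks described are those whose midpoint lies within 50 kb of the hg38 interval of 1 of these genes, and 131 of the 189403 peaks in the deposited table met that rule, 93 nearest a luminal gene and 38 nearest a basal gene. They come from ATAC-seq, which uses a transposase (Tn5) to cut and tag DNA that is not covered by nucleosomes. T47D cells are an established luminal breast cancer line and carry the estrogen receptor.

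There were 6 groups of 4 libraries. Some cells were kept for 3 days in medium without phenol red and with charcoal-stripped serum, here called starved medium, and then received 1 nM beta estradiol or 0.1% DMSO as vehicle for 1 hour. Other cells spent 1 day in complete medium before a 1 hour exposure to 100 nM fulvestrant, 100 nM raloxifene, 100 nM tamoxifen or 0.1% DMSO. All groups were the same line, so differences between them are within 1 genotype. The starved and complete groups differed in serum, phenol red, plating and days in culture together, and these cannot be told apart. Replicates 3 and 4 of the complete-medium vehicle carry a treatment label that names fulvestrant, while their titles name DMSO, and they were grouped by title. Nothing in the labels ties a replicate to a culture of its own, and every p-value is therefore set against library-to-library spread that may be technical.

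Keratins are the intermediate filament proteins of epithelial cells, and each filament is built from a type I and a type II partner. KRT8 and KRT18 are the pair of simple and glandular epithelium, KRT7 and KRT19 are further simple-epithelial keratins of ducts, and KRT5 with KRT14 is the pair of basal cells. KRT6A and KRT17 are partners found in basal and appendage epithelium and are known to be induced in stressed or wounded skin. In the breast, estradiol acts through the estrogen receptor, a ligand-activated transcription factor that binds enhancers, and fulvestrant, raloxifene and tamoxifen compete with it for the receptor.

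The type II genes KRT7, KRT8, KRT5 and KRT6A, and the type I gene KRT18, lie on chromosome 12, while KRT19, KRT14 and KRT17 lie on chromosome 17. Of the 8 genes, RefSeq promoter sequence was matched for 2, KRT8 and KRT5, and these are shown because they are 1 luminal and 1 basal type II gene on the same chromosome. Each is the 250 bases before the transcript start that the sequence table gives, 5′ to 3′ on the minus strand of GRCh38.p14. Capitals mark the bases that fall inside an ATAC peak.

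KRT8, chr12:52926470-52926719: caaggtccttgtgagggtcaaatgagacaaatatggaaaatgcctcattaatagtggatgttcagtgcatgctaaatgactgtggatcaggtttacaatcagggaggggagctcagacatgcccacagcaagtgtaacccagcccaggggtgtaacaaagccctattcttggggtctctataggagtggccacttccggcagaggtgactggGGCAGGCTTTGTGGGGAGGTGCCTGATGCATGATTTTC

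KRT5, chr12:52520395-52520644: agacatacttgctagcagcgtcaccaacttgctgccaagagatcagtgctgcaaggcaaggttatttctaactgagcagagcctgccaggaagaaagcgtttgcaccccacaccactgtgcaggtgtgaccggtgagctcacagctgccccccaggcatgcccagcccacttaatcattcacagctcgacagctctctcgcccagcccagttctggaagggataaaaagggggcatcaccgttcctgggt

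In the KRT8 sequence the last 38 bases lay inside a peak at chr12:52926270-52926507, which also spans that transcript start, at 52926469. This start lies inside the KRT8 interval used to choose peaks, chr12:52897191-52949860, and is not its 5′ end. No base of the KRT5 sequence lay in a peak, and the nearest peak, chr12:52521929-52522129, was centred 1.64 kb away. Over all protein-coding genes, 12563 of 22199 promoter windows of 300 bases (250 before the start and 50 from it on) overlapped a peak, or 56.6%, against 2 of 32 (6.25%) keratin genes outside the 8. Both windows were searched on both strands for motifs. The estrogen response element GGTCANNNTGACC was found in neither, and 0.0360% of all windows hold it. The shorter GGTCA, a part of that element, occurred once in each, as it does at least once in 35.6% of all windows. Neither window held TGANTCA (the AP-1 motif, in 6.15% of all windows), AGATAA (bound by GATA3 and its family, 7.91%), TGTTTAC (forkhead, 2.85%), AACCNGTT (grainyhead, 1.65%), GGGCGG (GC box, 56.3%) or TATAAA (the core promoter box, 9.47%). A match is a description of the letters only.

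Luminal keratin genes had more and stronger peaks than basal ones. Accessibility is given as CPM, the count of a peak relative to the library's total after TMM scaling. The median peak had a mean of 13.2 CPM over the 24 libraries near the luminal genes and 1.60 CPM near the basal genes, and peaks were of similar width in the classes (medians 222 and 209 bp). Above 10 CPM were 53 of the 93 luminal peaks and 8 of the 38 basal peaks, and below 2 CPM were 11 luminal and 21 basal peaks. A midpoint inside the gene itself was seen for 26 luminal peaks and 1 basal peak, in KRT17, at 1.63 CPM. These counts were not scaled for gene length. KRT8 (52.7 kb) held 14 and KRT7 (22.6 kb) 7, while KRT18 (4.05 kb) held 3 and KRT19 (4.69 kb) 2. The basal genes were 4.62 to 6.08 kb long.

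Per kb of the stretch that lies within 50 kb of a gene and nearest to it, summed CPM was 8.09 for KRT19, 4.29 for KRT18, 3.92 for KRT8, 3.14 for KRT7, 3.07 for KRT17, 0.913 for KRT14, 0.170 for KRT6A and 0.159 for KRT5. KRT7 and KRT17 were thus close to each other by this measure, although 1 is a luminal and 1 a basal gene, and KRT5 and KRT6A stood far below the others. Both sums include peaks of which another gene is nearer: the member was nearest for 15 of 26 KRT7 peaks and 11 of 18 KRT17 peaks. Inside the genes the 2 differed, with 7 peaks and 143 CPM in the 22.6 kb of KRT7 and 1 peak at 1.63 CPM in the 5.13 kb of KRT17. With every peak in the 50 kb window counted, KRT19 was at the 99.99 percentile of CPM per kb among 19803 protein-coding genes, KRT18 at 99.7, KRT8 at 99.4, KRT7 at 97.7, KRT17 at 95.1, KRT6A at 15.5 and KRT5 at 13.4. KRT14 was at 99.3 by that count, and its window also holds 9 peaks that lie nearer to KRT19. The order is a description, because the genes were chosen for being luminal or basal markers.

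Of the 8 basal peaks above 10 CPM, 7 were assigned to KRT17 and 1 to KRT14, and all lay outside the gene. The strongest peak assigned to KRT17, chr17:41665911-41666142, had a mean of 44.2 CPM and lay 41.5 kb from the gene, with EIF1 nearer at 22.9 kb. For KRT14 it was chr17:41579576-41579809, 2.59 kb away, at 35.6 CPM, while the median of the 7 KRT14 peaks was 1.47 CPM. No peak of the 5 near KRT5 exceeded 4.01 CPM and none of the 8 near KRT6A exceeded 3.50 CPM. The member was also the nearest protein-coding gene for 59 of the 93 luminal and 20 of the 38 basal peaks, so many of these peaks have another gene closer by. The 50 kb edge falls in uneven signal: the 3 peaks just inside it, at 47.2 to 49.3 kb, had 0.791 to 0.905 CPM, and the 3 just outside, at 50.4 to 53.3 kb, had 3.80 to 46.6 CPM.

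**Figure D1:**
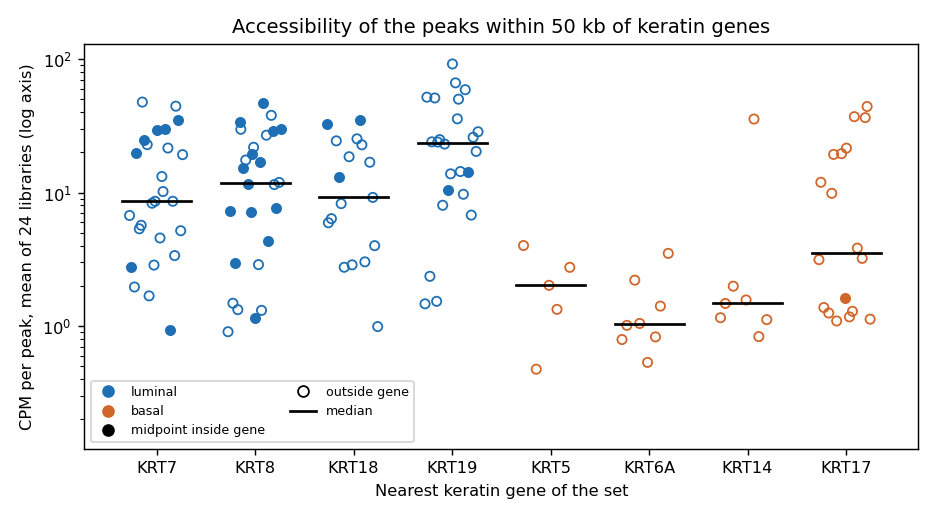
Mean CPM of each of the 131 peaks over 24 libraries (log axis), by nearest keratin gene; filled points have their midpoint inside the gene, open points outside, and bars are medians. Medians run from 8.60 to 23.5 CPM for the luminal genes and from 1.03 to 3.52 CPM for the basal genes, and the KRT17 column holds 7 peaks above 10 CPM and the KRT14 column 1.

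The ratio of luminal to basal CPM per kb stayed above 1 in every library. It was 4.21 ± 0.0407 (SD, n = 4) in complete vehicle, 4.20 ± 0.138 with raloxifene, 4.12 ± 0.238 with tamoxifen, 3.74 ± 0.718 with fulvestrant, 3.96 ± 0.201 in starved vehicle and 4.47 ± 0.202 with estradiol. The 4 estradiol libraries ran from 4.24 to 4.73 and the 4 starved vehicle libraries from 3.70 to 4.12, without overlap. The lowest value of all, 2.75, came from fulvestrant replicate 4, a library with 434598 counts in peaks. No test was made of this ratio, since the genes were picked with earlier results known.

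The libraries other than fulvestrant replicate 4 held 2422981 to 12140005 counts in peaks, starved vehicle replicate 3 being the shallower end. Fulvestrant replicate 4 had 0 counts in 12 of the 131 peaks and 679 counts over all of them. Depth is not its only difference: its TMM factor was 1.56, against 0.957 to 1.05 elsewhere, and 36.1% of all its peaks had 0 counts. Its luminal peaks summed to 850 CPM, already relative to the total, against 1493 to 1775 CPM in the other fulvestrant libraries. Why was not tested. Defining luminal markers were open: the 7 genes EPCAM, CDH1, GATA3, FOXA1, ESR1, ELF3 and MUC1 each had 2 to 69 peaks within 5 kb. Basal and myoepithelial markers also had peaks, from 2 within 5 kb of CNN1 to 35 within 5 kb of MYLK, with 33 at TP63. So did the fibroblast markers (2 to 9 peaks, PDGFRB having 9) and the blood markers (1 to 12 peaks, PTPRC having 12). Peak counts were not scaled for gene length. Summed CPM within 5 kb was lowest at EPCAM (33.2) among the 7 luminal genes, next FOXA1 (138), and highest at ESR1 (235). It ran from 8.25 (CNN1) to 191 (MYLK) for basal and myoepithelial markers and from 5.86 (COL1A2) to 76.3 (COL1A1) for fibroblast markers. For blood markers it ran from 6.23 (CD14) to 39.7 (CD3E).

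Estradiol for 1 hour raised 7 of the 128 keratin peaks that passed the filter on low counts and lowered 0, at an adjusted p under 0.05 (edgeR quasi-likelihood test, Benjamini-Hochberg over all 156745 peaks tested). All 93 luminal peaks passed that filter and 35 of the 38 basal ones. Over all peaks tested 0.813% were raised and 0.0223% lowered. All 7 raised peaks were luminal, 7.53% of 93: 3 near KRT18, 3 near KRT19, 1 near KRT8 and 0 near KRT7. None of the 35 basal peaks was called by edgeR or by DESeq2, and 1 had an unadjusted p under 0.05. Whether the luminal and basal shares differ was not tested. The shares were not matched for level, and a change is harder to call at a weak peak. The median peak was at 13.2 CPM for luminal and 1.60 CPM for basal genes, against 2.64 CPM over all tested peaks. The median log2 fold change was 0.35 for the 24 KRT19 peaks, 0.34 for the 17 KRT18 peaks, 0.03 for the 26 KRT8 peaks and -0.07 for the 26 KRT7 peaks, against -0.01 over all peaks.

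The peak with the smallest p lay at chr12:52895371-52895742, 1.63 kb past the 3′ end of KRT8, the type II partner of KRT18. Its 4 starved vehicle libraries had 19.8, 21.3, 27.3 and 27.9 CPM, and its 4 estradiol libraries had 36.0, 31.3, 47.03 and 47.3 CPM. Every estradiol library was above every vehicle library. The log2 fold change was 0.77 (SE 0.123, edgeR adjusted p = 9.10e-06), and complete vehicle had 44.2 ± 3.88 CPM (SD, n = 4). The change was 0.71 within replicates 1 and 2 and 0.77 within replicates 3 and 4.

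By contrast, the strongest KRT8 peak, inside the gene at chr12:52905031-52905261, and the peak at the KRT8 transcript start at 52926469 were not called. The former had 44.8 ± 2.30 CPM in starved vehicle and 51.1 ± 3.31 with estradiol (log2 fold change 0.19, 95% interval -0.01 to 0.39). The latter, 38 of whose bases are the capitals printed for KRT8, had 23.99 ± 2.31 and 24.8 ± 2.85 CPM (0.04, interval -0.24 to 0.33).

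KRT18, the type I keratin that pairs with KRT8, had raised peaks at 2 places. The first, chr12:52954197-52954549, lay 1.47 kb outside the gene. Starved vehicle libraries had 8.87, 9.32, 3.21 and 8.37 CPM there and estradiol libraries 13.4, 11.9, 16.7 and 18.1 CPM. The groups did not overlap, and the low vehicle value came from the shallow replicate 3. The log2 fold change was 0.86 (SE 0.175, edgeR adjusted p = 0.00137); within replicates 1 and 2 it was 0.48 and was not called (adjusted p = 0.643), and within replicates 3 and 4 it was 1.24. Complete vehicle was at 7.56 ± 1.62 CPM, near the starved vehicle level, a log2 difference of -0.16 between media (interval -0.57 to 0.25).

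The second place was a pair of neighbouring peaks about 19 kb from KRT18. At chr12:52971688-52971936, starved vehicle had 13.8, 17.9, 20.8 and 15.3 CPM and estradiol 27.4, 22.8, 27.8 and 30.2 CPM, with no overlap (log2 fold change 0.74, edgeR adjusted p = 0.00566). At chr12:52972071-52972298 the values were 11.3, 11.4, 10.4 and 15.1 CPM against 21.6, 20.4, 21.1 and 18.5 CPM (0.70, edgeR adjusted p = 0.00460). Both also separated completely by group. The strongest KRT18 peak, inside the gene at chr12:52949803-52950013 where the KRT8 and KRT18 intervals overlap, had the opposite sign: 33.2 ± 2.86 CPM in starved vehicle and 25.3 ± 4.36 with estradiol. That difference (log2 fold change -0.37, SE 0.114) did not pass (edgeR adjusted p = 0.154), although its groups did not overlap.

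KRT19, the type I keratin of ducts, had 3 raised peaks, on both sides of the gene. At chr17:41536839-41537198, 8.71 kb away, starved vehicle had 14.2, 14.2, 19.2 and 18.3 CPM and estradiol 21.9, 21.1, 27.6 and 33.0 CPM (log2 fold change 0.69, SE 0.135, edgeR adjusted p = 0.000606). At chr17:41511275-41511673, 12.1 kb away and nearer to KRT15 (2.27 kb), values were 7.38, 11.6, 11.6 and 9.74 CPM against 14.3, 15.1, 16.6 and 15.2 CPM (0.66, adjusted p = 0.0119). At both places all estradiol libraries exceeded all vehicle libraries.

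The strongest of the 131 peaks, chr17:41536116-41536374 at a mean of 92.1 CPM, was also raised, from 81.0, 73.3, 77.4 and 77.6 CPM to 94.7, 89.7, 108 and 102 CPM. Its log2 fold change was 0.35 (SE 0.0924, edgeR adjusted p = 0.0366), the smallest change of the 7, and the call was lost under 12 of 20 alternatives. This peak and the one at 41536839 lie within 50 kb of KRT14 as well, though nearer to KRT19. Of the 24 KRT19 peaks 22 had a log2 fold change above 0, and 15 had an unadjusted p under 0.05, as did 9397 of all 156745 peaks. None of the 7 changes turned direction within replicates 1 and 2 or within replicates 3 and 4. The 7 were picked on these same libraries, so this is not independent support. In each case 4 luminal peaks were called, and within replicates 3 and 4 not all of them were among the 7. No raised KRT19 peak passed there (edgeR adjusted p = 0.0646, 0.337 and 0.397).

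**Figure D2:**
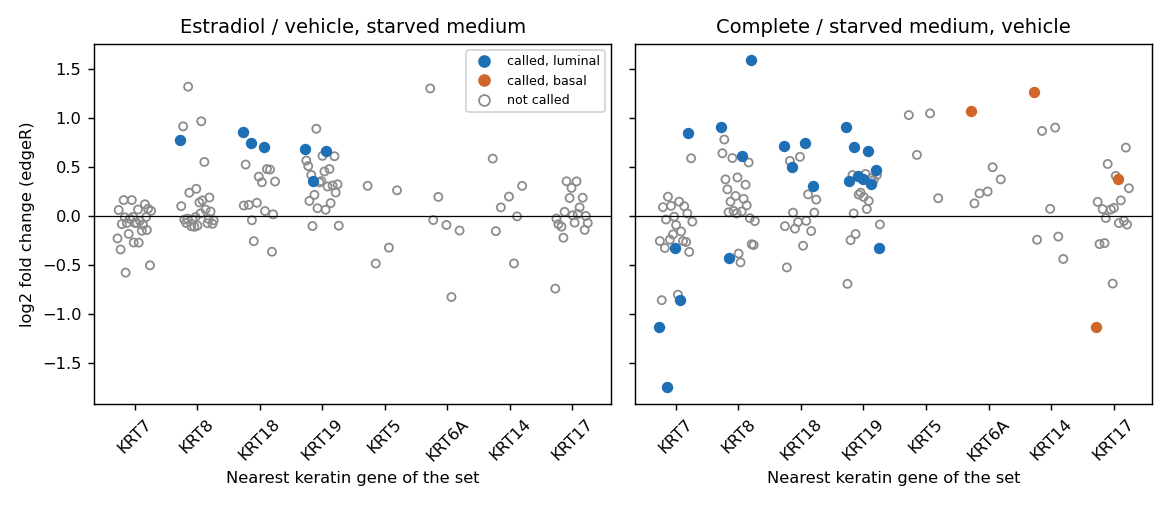
Log2 fold change of each of the 128 tested peaks, by nearest keratin gene, for estradiol against vehicle in starved medium (left) and complete against starved medium with vehicle (right); filled points passed an adjusted p of 0.05, blue for luminal and orange for basal. Left, the 7 filled points are all above 0 and sit at KRT8, KRT18 and KRT19; right, filled points lie on both sides of 0.

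The media differed at more keratin peaks. Complete vehicle was higher than starved vehicle at 19 of 128 peaks and lower at 7, while over all peaks tested 7.93% were higher and 9.91% lower. Among luminal peaks 16 of 93 were higher (17.2%) and 6 lower (6.45%), and among basal peaks 3 of 35 were higher (8.57%) and 1 lower (2.86%). By gene the higher and lower counts were 8 and 1 for KRT19, 4 and 0 for KRT18, 3 and 1 for KRT8 and 1 and 4 for KRT7. Without the 2 vehicle libraries whose labels disagree, 9 luminal peaks were higher and 3 lower, and within replicates 3 and 4 alone, 5 and 3. Calls over the whole table fell too, from 12423 higher and 15537 lower of 156745 tested. They were 8570 and 9320 of 171350 without those 2 libraries, and 4293 and 6270 of 160761 within replicates 3 and 4. The estradiol and media comparisons share the starved vehicle libraries, so their values are set side by side only.

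The smallest p belonged to a KRT19 peak at chr17:41539216-41539512, 11.1 kb from the gene. Starved vehicle had 35.5, 38.4, 35.7 and 39.0 CPM and complete vehicle 72.7, 67.1, 70.2 and 71.7 CPM, with a gap between the groups far wider than either spread. The log2 fold change was 0.91 (SE 0.103, edgeR adjusted p = 5.05e-11), and it was 0.93 within replicates 1 and 2 and 0.87 within replicates 3 and 4. Estradiol libraries lay between, at 47.7 ± 3.44 CPM, a difference from starved vehicle of 0.35 that did not pass (edgeR adjusted p = 0.124).

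At the KRT8 3′ peak, complete vehicle had 44.4, 39.4, 48.9 and 43.9 CPM, all above the starved vehicle libraries (0.90, edgeR adjusted p = 2.93e-08, and 0.77 for estradiol). At the KRT19 peak at 41536839 it had 24.7, 25.0, 26.1 and 26.4 CPM (0.67, adjusted p = 0.000153, and 0.69 for estradiol), again above every starved vehicle library.

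Some luminal peaks were called between media and not with estradiol, and the difference between those changes was not tested. The peak at the KRT8 transcript start at 52926469 rose from 24.1, 27.2, 22.5 and 22.2 CPM to 40.1, 40.0, 34.1 and 32.7 CPM in complete medium (log2 fold change 0.61, SE 0.135, edgeR adjusted p = 0.000675), and every complete library was higher. At KRT7, the simple-epithelial type II keratin, peaks were lower in complete medium. One inside the gene, chr12:52249178-52249378, had 29.2, 27.0, 27.7 and 32.8 CPM in starved vehicle, 25.0, 27.0, 32.7 and 28.5 with estradiol, and 14.9, 14.4, 16.8 and 19.6 in complete vehicle. The starved groups overlapped each other and neither overlapped the complete group, and the difference between media was -0.86 (SE 0.130, edgeR adjusted p = 3.52e-07).

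Another KRT7 peak, chr12:52280352-52280664, 24.7 kb away and inside KRT86, fell by 1.14 on the log2 scale in complete medium (edgeR adjusted p = 2.61e-07), from 23.4, 29.7, 12.8 and 18.3 CPM to 10.8, 11.8, 9.36 and 8.32 CPM. The starved libraries were widely spread but all above the complete ones. A weaker peak at chr12:52298663-52298986, 43.0 kb away and also inside KRT86, had 4.97 ± 1.93 CPM in starved vehicle and 1.59 ± 0.456 in complete vehicle, a log2 change of -1.75 (SE 0.293, edgeR adjusted p = 3.16e-06). These 3 KRT7 calls held within replicates 1 and 2 and within replicates 3 and 4. The other KRT7 peak called lower, chr12:52217284-52217569, had 27.3, 25.7, 24.9 and 28.2 CPM in starved vehicle and 20.5, 19.9, 23.0 and 22.2 CPM in complete vehicle. Its groups did not overlap (-0.33, edgeR adjusted p = 0.0460), but the call was lost within replicates 1 and 2 (adjusted p = 0.0652), within replicates 3 and 4 (0.407) and without the vehicle libraries with conflicting labels (0.0963). With estradiol the changes at the 4 KRT7 peaks were -0.05, -0.28 (interval -0.56 to 0.01), -0.07 and -0.23 (interval -0.47 to 0.001), in the order given, and none was called.

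**Figure D3:**
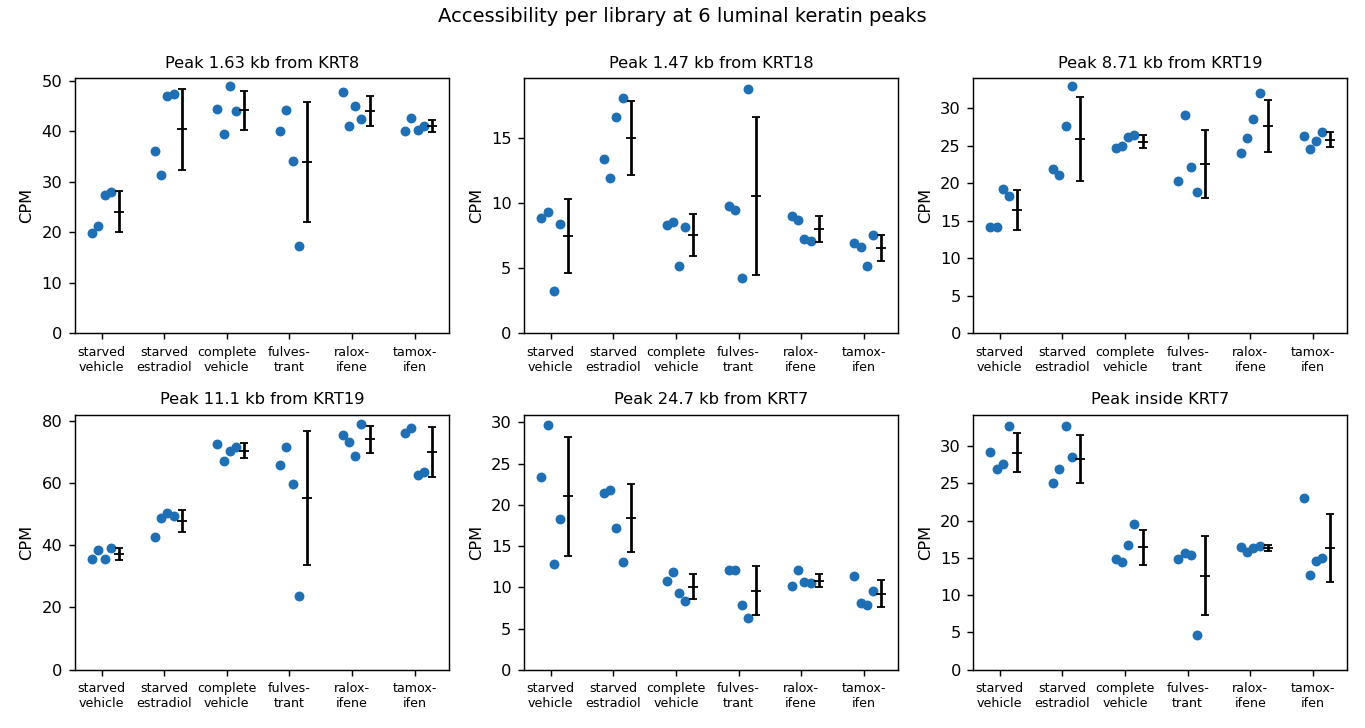
CPM in each library (points, replicates 1 to 4 from left to right) with mean and SD (bars) at 6 luminal keratin peaks in the 6 groups; axes start at 0. The KRT8 and KRT19 peaks are lowest in starved vehicle, the KRT18 peak is highest with estradiol, and both KRT7 peaks are higher in the 2 starved groups than in complete medium; the single low fulvestrant point in several panels is replicate 4.

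Between media, 3 of 35 basal peaks were called higher (8.57%, against 7.93% of all peaks tested) and 1 lower (2.86%, against 9.91%). Near KRT14, the type I keratin of basal cells, chr17:41589386-41589590 had 0.461, 0.995, 0 and 1.91 CPM in starved vehicle and 2.27, 2.21, 2.26 and 4.09 CPM in complete vehicle (1.26 on the log2 scale, SE 0.386, edgeR adjusted p = 0.0139). The groups did not overlap, at a level of a few CPM. Near KRT6A, chr12:52454728-52454959 had 1.98 ± 0.603 and 3.85 ± 1.08 CPM (1.07, adjusted p = 0.0106), and KRT6B is the nearer gene there. In KRT17 the peak at chr17:41623189-41623394 was lower in complete medium (-1.14, adjusted p = 0.0122), with 3.57, 2.49, 0.802 and 3.00 CPM against 1.73, 1.56, 1.03 and 0.730 CPM, and its groups overlapped. The KRT17 peak at chr17:41655747-41655993, 31.3 kb away, was higher (0.38, adjusted p = 0.0151) at 31.3 ± 5.13 and 41.1 ± 2.94 CPM, also with overlap. The 3 higher calls passed within replicates 1 and 2 and none within replicates 3 and 4, while the KRT17 lower call passed in neither. The strongest basal peaks, at 41665911 near KRT17 and 41579576 near KRT14, had log2 differences between media of -0.02 (interval -0.23 to 0.18) and 0.07 (interval -0.14 to 0.28).

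**Figure D4:**
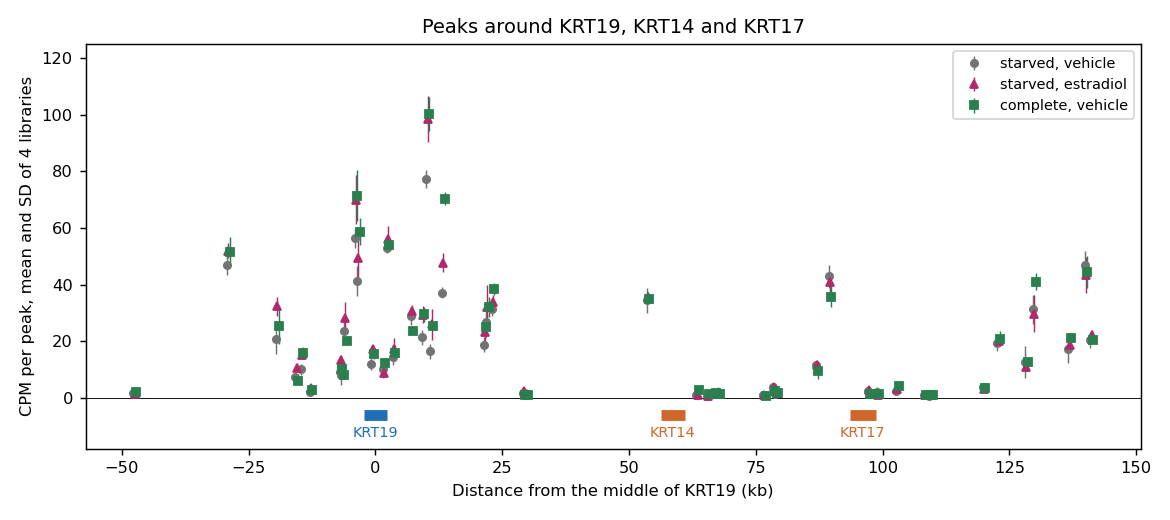
Mean CPM and SD of 4 libraries at each peak around KRT19, KRT14 and KRT17 for starved vehicle, starved estradiol and complete vehicle, against distance from the middle of KRT19 in kb; bars under the axis line show the genes, and symbols are offset slightly sideways. The peaks where estradiol and complete medium exceed starved vehicle lie around KRT19, and those beside KRT14 and KRT17 are mostly near the axis.

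Summed over all peaks within 50 kb, the KRT19 window held 250, 248, 267 and 254 CPM in starved vehicle and 289, 292, 322 and 340 CPM with estradiol. All estradiol sums were higher, and the log2 fold change was 0.29 (SE 0.0444, edgeR adjusted p = 4.77e-05 over 19691 gene windows, of which 1.55% were raised and 0.0355% lowered). The KRT14 window was called too (0.22, adjusted p = 0.000670), but it shares peaks with KRT19: with each peak counted only for its nearest gene the KRT14 change was 0.09 (adjusted p = 0.999). The other 6 windows were not called, with changes from -0.08 (KRT7) to 0.13 (KRT8), although KRT18 was called with nearest peaks only (0.23, adjusted p = 0.0400). With a term for replicates 1 and 2 against 3 and 4, KRT8 (adjusted p = 0.000670) and KRT18 (adjusted p = 0.00500) were called too. All 31 peaks of the KRT18 window also lie in the KRT8 window of 43, so these are not 2 separate results.

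Between media, KRT7 was the only one of the 8 windows called lower: 195, 186, 182 and 187 CPM in starved vehicle against 153, 167, 159 and 162 CPM in complete vehicle. Over all windows 11.6% were higher and 12.9% lower. The KRT7 change was -0.23 (SE 0.0333, edgeR adjusted p = 1.08e-06). KRT19 was higher by 0.27 (adjusted p = 1.49e-05), as were KRT14 (0.24, adjusted p = 2.08e-05), KRT5 (0.45, adjusted p = 0.0156) and KRT6A (0.42, adjusted p = 0.0350). The KRT5 and KRT6A windows share peaks, as do those of KRT14 and KRT19, so these calls are not separate results. The calls at KRT14, KRT5 and KRT6A were lost when each peak counted only for its nearest gene (0.14, 0.34 and 0.19, adjusted p = 0.254, 0.249 and 0.773). The KRT5 window held 4.86 ± 0.225 CPM in starved vehicle and 6.76 ± 0.706 CPM in complete vehicle in all its peaks together, and its call was also lost without complete vehicle replicate 2 (0.38). The KRT6A call was lost without any 1 of complete vehicle replicates 1, 2 and 4 or starved vehicle replicates 1 and 4 (0.36 to 0.42). KRT8 (0.14, adjusted p = 0.0506), KRT18 (0.12, adjusted p = 0.218) and KRT17 were not called. KRT8 was called with a replicate block (adjusted p = 0.00951) and with a term for replicates 1 and 2 against 3 and 4 (1.63e-08). So was KRT18 (adjusted p = 0.0232 and 2.02e-06), whose window peaks all lie in the KRT8 window.

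**Figure D5:**
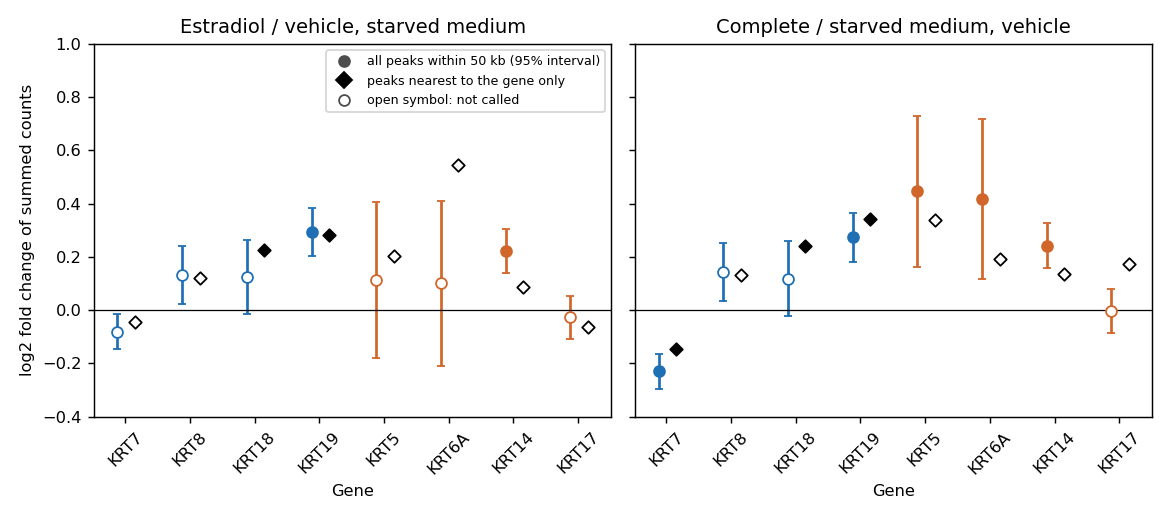
Log2 fold change of counts summed over all peaks within 50 kb of each gene (circles, with 95% intervals) and over the peaks nearest to the gene only (diamonds), for estradiol (left) and medium (right); filled symbols passed an adjusted p of 0.05. KRT19 is filled above 0 in both panels and both ways of counting, KRT7 is filled below 0 for medium, the filled KRT14 circles become open diamonds, and KRT18 is filled only as a diamond.

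None of the 128 peaks was called with fulvestrant, raloxifene or tamoxifen against complete vehicle, nor between any pair of these 3 receptor antagonists. Over all peaks tested, edgeR called 0.0% higher and 0.0% lower with fulvestrant and with tamoxifen, and 0.000638% higher and 0.0% lower with raloxifene. Between antagonists it called 0.0% higher and 0.000638% lower for fulvestrant against raloxifene, and 0.0% in each direction for both other pairs. Within replicates 3 and 4, which include the shallow fulvestrant library, 73 peaks of the whole table were called higher and 15 lower with fulvestrant against vehicle, and 268 and 13 for fulvestrant against tamoxifen, against 0 and 1, and 0 and 2, within replicates 1 and 2. Unadjusted p under 0.05 was seen at 6 keratin peaks with fulvestrant, 5 with raloxifene and 2 with tamoxifen, out of 6212, 5971 and 6479 over all peaks. The 3 comparisons share the vehicle libraries. For the 61 keratin peaks above 10 CPM, the 95% intervals of all 6 comparisons lay within a 2-fold change, between -0.72 and 0.86 on the log2 scale. For weaker peaks they were wider: over all 128 peaks 103, 100 and 101 had such intervals with fulvestrant, raloxifene and tamoxifen, and at the rest the interval reached past 2-fold.

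Fulvestrant, a steroidal antagonist that also leads to receptor degradation, gave its smallest p at a KRT19 peak, chr17:41547915-41548153. Complete vehicle had 29.3, 28.6, 34.4 and 36.1 CPM and fulvestrant 23.5, 27.2, 26.2 and 4.71 CPM. All fulvestrant libraries were below all vehicle libraries, the last being the shallow replicate 4. The log2 fold change was -0.37 (SE 0.140, edgeR adjusted p = 0.9996). Of the 24 KRT19 peaks 23 had a fulvestrant change below 0, with a median of -0.18, also 23 of 24 without replicate 4 (median -0.15), and 20 of 24 both within replicates 1 and 2 (-0.13) and within replicates 3 and 4 (-0.44). None was called in any of these fits. The 24 peaks were read from the same libraries and are not replicates of one another, and the refits reuse those libraries. The summed KRT19 window was lower in the same direction, with 311, 303, 303 and 309 CPM in vehicle and 277, 293, 266 and 224 CPM with fulvestrant (-0.15, interval -0.24 to -0.06, edgeR adjusted p = 0.9995). The median over all peaks was -0.01. Against the same vehicle libraries, 20 of 24 KRT19 changes were below 0 with tamoxifen and 16 of 24 with raloxifene.

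Raloxifene and tamoxifen, both selective modulators that are not steroids, gave their smallest p at other genes. With raloxifene it was a weak KRT17 peak, chr17:41604838-41605327, with 1.51, 2.08, 1.65 and 1.75 CPM in vehicle and 0.621, 0.442, 0.465 and 1.23 CPM with the drug (-1.36, SE 0.438, edgeR adjusted p = 0.99999). With tamoxifen it was the strongest peak assigned to KRT7, chr12:52191972-52192175, which lay 41.2 kb from KRT7 and 0.0595 kb from KRT80. It had 48.8, 47.2, 39.1 and 46.3 CPM in vehicle against 52.0, 57.5, 51.7 and 48.8 CPM with tamoxifen (0.21, SE 0.0975, edgeR adjusted p = 0.99999). The tamoxifen groups touched at 48.8 CPM. Median changes at KRT19 were -0.06 with raloxifene and -0.07 with tamoxifen. With tamoxifen, 23 of 24 KRT19 peaks were below 0 within replicates 3 and 4, and 12 of 24 within replicates 1 and 2.

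At the 7 peaks that estradiol raised in starved cells, the antagonists in complete medium gave changes from -0.31 to 0.22 with fulvestrant, from -0.02 to 0.14 with raloxifene and from -0.17 to 0.02 with tamoxifen, and none was called. At the KRT8 3′ peak, fulvestrant had 40.1, 44.1, 34.1 and 17.3 CPM (-0.19, interval -0.42 to 0.05), raloxifene 44.0 ± 2.94 CPM (-0.01, interval -0.22 to 0.21) and tamoxifen 41.0 ± 1.22 CPM (-0.11, interval -0.34 to 0.11). Fulvestrant differed from raloxifene by -0.18 there (interval -0.41 to 0.06) and from tamoxifen by -0.07 (interval -0.31 to 0.17), and raloxifene from tamoxifen by 0.11 (interval -0.11 to 0.33). These intervals include 0 and do not show that the compounds act alike. With fulvestrant all 7 changes were below 0 within replicates 3 and 4 and 3 of 7 within replicates 1 and 2.

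Over all peaks tested, estradiol raised 0.813% and lowered 0.0223%, and 7.93% were higher and 9.91% lower in complete medium. Among 60 tested peaks near other type II keratins, estradiol raised 1 (1.67%) and lowered 0. Between media 5 of these were higher (8.33%) and 2 lower (3.33%). Among 53 near other type I keratins, estradiol raised 2 (3.77%) and lowered 0. There, 3 were higher (5.66%) and 10 lower (18.9%) between media. Whether the shares of any list differ from those over all peaks was not tested. The estradiol call with the smallest p was near KRT37, a hair keratin, at chr17:41417623-41417912, from 16.6 ± 4.48 to 32.4 ± 3.31 CPM (log2 fold change 0.89, edgeR adjusted p = 0.00122). Lower in complete medium were KRT79 (chr12:52827229-52827495, 15.3 ± 1.21 to 6.92 ± 1.48 CPM, -1.11) and KRT23 (chr17:40915745-40916051, 3.68 ± 1.94 to 0.805 ± 0.373 CPM, -2.26), and KRT82 was higher (chr12:52395873-52396117, 1.14).

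Near 11 genes of desmosomes and keratin anchoring, such as DSP, JUP and PKP1, which tie keratin filaments to cell junctions, estradiol raised 1 of 204 peaks (0.490%) and lowered 0. Between media 14 were higher (6.86%) and 13 lower (6.37%), against 7.93% and 9.91% over all peaks tested. A PKP1 peak at chr1:201353296-201353497 rose from 8.52 ± 1.89 to 18.6 ± 1.96 CPM (log2 fold change 1.14, edgeR adjusted p = 1.28e-08), and a DST peak at chr6:56459518-56459743 fell from 7.05 ± 1.72 to 2.10 ± 0.331 CPM (-1.74, adjusted p = 2.04e-07). Near luminal epithelial markers, estradiol raised 3 of 197 peaks and lowered 1, and 31 were higher and 12 lower between media. Near basal and myoepithelial markers the counts were 4 and 0 of 210, and 22 and 18. Near fibroblast markers they were 0 and 0 of 44, and 2 and 3, and near blood markers 0 and 0 of 59, and 2 and 9. The median estradiol change of these lists ran from -0.02 to 0.03, against -0.01 over all peaks.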

How the data were processed

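The 24 ATAC-seq libraries came with 1 deposited table of raw counts per peak, with no normalization. Per the submitters' processing notes, cutadapt 1.8.1, Bowtie2 2.4.4, SAMtools 1.9 and hg38 were used. Not given in the sources used here were the peak caller, counting tool, duplicate handling, Tn5 shift and whether peak starts count from 0 or 1. Every column was mapped to a library by its title.

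One model of 6 groups held all libraries (edgeR 4.0.16 in R 4.3.3), with filterByExpr (minimum count 10, minimum total 15), TMM scaling and a robust quasi-likelihood F test, two-sided, adjusted over all tested peaks at 0.05. Standard errors were taken as the absolute log2 fold change divided by the square root of F. The filter kept 128 of 131 keratin peaks. Totals of 434598 to 12140005 counts set the precision. Because the model gives deep libraries more weight, fitted changes for fulvestrant, with its shallow replicate 4, can differ from ratios of mean CPM. A peak within 50 kb of several members went to the nearest: 10 lay within 50 kb of both KRT19 and KRT14, and 31 of both KRT8 and KRT18. Gene intervals came from RefSeq (GRCh38.p14).

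Counts summed per gene window were tested the same way. Named peaks were, per gene, the strongest, the one nearest the transcript start in the sequence table, the smallest p for estradiol and medium, every called peak up to 12 per direction, and the smallest p per antagonist; others were named for the lists. The members and lists were chosen with earlier results of these data known. No library looked like a copy of another: chi-square per degree of freedom was 1.72 to 4.31 in the 36 pairs of same-group libraries. On simulated data for the estradiol comparison over 156745 peaks, 60% of 1.5-fold, 98% of 2-fold and 100% of 4-fold rises and 82% of 0.5-fold changes were recovered. The changed peaks were drawn only from those above about the median mean CPM of tested peaks (2.64). These shares therefore do not cover weaker peaks, and the median basal keratin peak was at 1.60 CPM. Among unchanged peaks, 9 were called. Simulated counts had the same mean in all groups apart from the planted changes, and lacked the peak-specific extra spread that the model fits. The shares can therefore be too high for the real data. Alternatives were RLE factors, total counts, loess offsets, no filter, the older edgeR fit, DESeq2 1.42.0, only the groups compared, a replicate block, a term for replicates 1 and 2 against 3 and 4 and fits within each, leaving out libraries, a 10 kb window and the handling of shared peaks. Replicates 1 and 2 against 3 and 4 are not a batch that the labels name.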

Additional observations from a re-analysis of the deposited data

Results flagged for a closer look

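Among the named peaks, 204 sets of 4 libraries were examined for a single library far from the other 3, and 16 were found, where chance gives about 1 in 20.

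Fulvestrant replicate 4, the shallowest library, was the far one in 7. It had 4.71 CPM at the KRT7 peak at 52249178, 6.28 at the KRT5 peak at 52521929, 0 at the KRT8 peak at 52926270, 4.71 at the KRT18 peak at 52970139, 17.3 at the KRT19 peak at 41522434, 4.71 at the KRT19 peak at 41547915 and 17.3 at the KRT17 peak at 41655747. It was the highest at the KRT5 peak and the lowest at the other 6.

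Starved vehicle replicate 3, the second shallowest, was low at the KRT18 peak at 52954197 (3.21 CPM, others 8.37 to 9.32) and high at the KRT17 peak at 41624906 (4.81 CPM, others 0.995 to 1.50). Complete vehicle replicate 3 was low at that KRT18 peak (5.14 CPM, others 8.17 to 8.58), and complete vehicle replicate 4 was high at the KRT14 peak at 41589386 (4.09 CPM, others 2.21 to 2.27).

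Raloxifene replicate 4 was high at the KRT5 peak at 52521929 (1.91 CPM) and the KRT8 peak at 52905031 (52.0 CPM). Raloxifene replicate 2 was low at the KRT19 peak at 41536116 (91.1 CPM, others 102 to 104), tamoxifen replicate 2 high at the KRT19 peak at 41533020 (28.5 CPM, others 21.1 to 21.9) and estradiol replicate 2 low at the KRT7 peak at 52217284 (21.2 CPM, others 23.4 to 23.6).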

How the results depend on the processing

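The rises of the KRT8 3′ peak with estradiol and of the KRT19 peak at 41539216 in complete medium, and the falls of the KRT7 peaks at 52249178, 52280352 and 52298663, passed under all alternatives run. Raised luminal peaks with estradiol numbered 4 within replicates 1 and 2, 4 within replicates 3 and 4, 11 with only the groups compared and 4 within 10 kb; 1 luminal peak was lowered with loess offsets or the term for replicate sets; and 2 basal peaks were raised with shared peaks counted in both classes. Leaving out 1 library gave 3 to 8 raised luminal peaks, 3 without starved vehicle replicate 1 and 4 without starved vehicle replicate 4.

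Between media, higher luminal peaks numbered 9 without the vehicle libraries with conflicting labels, 5 within replicates 3 and 4, 10 with DESeq2, 8 within 10 kb and 11 to 17 leaving out 1 library. Lower luminal peaks numbered 3 with the set term, 3 without the conflicting libraries, 3 within replicates 3 and 4, 2 within 10 kb and 4 to 6 leaving out 1. Higher basal peaks numbered 1 without the conflicting libraries, 0 within replicates 3 and 4, 1 within 10 kb, 8 with shared peaks in both classes and 1 to 4 leaving out 1 (1 without complete vehicle replicate 4). Lower basal peaks numbered 2 with RLE factors, total counts, loess offsets, the replicate block, only the groups compared, the shallow libraries left out or shared peaks in both classes, and 0 with the set term, DESeq2, without the conflicting libraries and within either set. Leaving out 1 library gave 0 to 2 (2 without complete vehicle replicate 1, 0 without complete vehicle replicate 3 or starved vehicle replicate 1).

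Summed windows with estradiol gave KRT8 0.13 and KRT18 0.13 with the set term (both called), KRT18 0.23 with nearest genes only (called), KRT14 0.0889 within 10 kb and 0.0883 with nearest genes only (not called), and KRT6A -0.0167 to 0.172 leaving out 1 library. Between media, KRT8 was called with the replicate block (0.15) and the set term (0.23), and without complete vehicle replicate 4 (0.17; range 0.12 to 0.17). KRT18 was -0.0756 within 10 kb, and was called at 0.24 with nearest genes only, 0.13 with the replicate block and 0.21 with the set term. KRT5 was not called at 0.33 within 10 kb, 0.34 with nearest genes only and 0.40 with the set term (0.38 to 0.50 leaving out 1), nor KRT6A at 0.18, 0.19 and 0.38 (0.36 to 0.52), nor KRT14 at 0.13 within 10 kb and 0.14 with nearest genes only. KRT17 was -0.28 within 10 kb (called), 0.17 with nearest genes only and 0.0407 with the set term (-0.0243 to 0.0112 leaving out 1). The mean ratio of luminal to basal CPM per kb over 24 libraries was 4.12, and 3.36 with shared peaks left out. The causes were not tested.

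The labels give no shared source for equal replicate numbers. Same-numbered libraries correlated at 0.03 to 0.13 for estradiol (other pairs -0.12 to 0.11) and -0.02 to 0.11 for medium (-0.06 to 0.04). The ranges were 0.03 to 0.10 (-0.07 to 0.04) for raloxifene and 0.02 to 0.05 (-0.10 to 0.07) for tamoxifen. Not every library correlated best with its own number, and these values do not settle whether the numbers pair them. For estradiol, chi-square per degree of freedom was 1.87 between replicates 1 and 2, 1.79 between 3 and 4, and 2.15 to 2.32 across. Raloxifene and tamoxifen separated likewise, and the other groups did not. The replicate block moved estradiol calls over all peaks from 1274 to 1570 higher and 35 to 73 lower. Among keratin peak counts it moved lower basal peaks between media from 1 to 2, and no other by over 1.5 times. Depth limits the weak basal peaks, where intervals span more than 2-fold.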
